A study of Homo sapiens with 6 samples.

Results

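The Wnt pathway was examined through 60 genes, chosen by symbol from the 29436 of the count table: the 19 Wnt ligands, the 10 Frizzled receptors, the co-receptors LRP5 and LRP6, the R-spondin receptors LGR4 and LGR5, 10 secreted inhibitors, the membrane ubiquitin ligases RNF43 and ZNRF3, 10 cytoplasmic components and 5 nuclear factors. Their transcripts were counted in hemogenic endothelium, the endothelium that gives rise to blood cells, in 3 libraries from cultures given alpha lipoic acid and 3 from untreated cultures. Alpha lipoic acid, an antioxidant and a cofactor of mitochondrial enzymes, was present at 100 µg/ml in the medium of the first group and absent from that of the second. All cells were derived from the human embryonic stem cell line H1, which is established and widely used, and both groups were grown on AGM-S3, a mouse stromal line. Cells carrying CD34, KDR and CD144 but not CD43 were sorted on day 8, and each library was amplified polyA cDNA of 1000 cells. The study set out to learn how lipoic acid raises the yield of blood progenitors. The labels do not say whether the libraries of a group came from separate cultures, so the p-values cover the spread among these libraries, and that spread may be technical.

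Wnt proteins are secreted, lipid-modified ligands. In the canonical branch a ligand bridges a Frizzled receptor and LRP5 or LRP6, which disarms a complex of AXIN, APC and GSK3 that otherwise marks beta-catenin for destruction, and beta-catenin then enters the nucleus and activates genes with TCF and LEF factors. Secreted inhibitors block ligands or co-receptors, the ligases RNF43 and ZNRF3 remove Frizzled from the membrane, and R-spondins acting through LGR receptors remove those ligases. In pluripotent stem cell cultures Wnt signalling is known to act on mesoderm formation and on the emergence of definitive hemogenic endothelium, and in vessels FZD4 carries Wnt and norrin signals.

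Total counts ran from 30041494 to 41351951 per library. Even numbers made up 99.1% to 99.3% of the nonzero counts in 4 libraries, namely all 3 with lipoic acid and replicate 1 of the untreated group, and 52.0% in the other two untreated libraries, so 2 counts in the first set may be 1 read. Levels are CPM, the share of a library's counts scaled by TMM to a common depth, and a gene is said to have risen or fallen where edgeR's quasi-likelihood test gave a Benjamini-Hochberg adjusted p under 0.05 over all 13780 tested genes. In such bulk libraries fewer cells of a type and less RNA per cell cannot be told apart. No library held a count of SPN, the gene of CD43. Of the other gate genes CD34 was 1.78-fold lower (adjusted p = 1.13e-06) and CDH5, the gene of CD144, 1.55-fold lower (adjusted p = 0.000344). KDR was 1.17-fold higher (adjusted p = 0.00409). Among 5 hemogenic markers RUNX1 (5.46-fold) and GFI1 (2.24-fold) rose, MYB (3.03-fold) and LMO2 (1.43-fold) fell, and TAL1 was not called. Among 6 blood and myeloid markers PTPRC and SPI1 had no count in any library, LAPTM5 and FCER1G fell, and ITGB2 rose (3.92-fold, adjusted p = 0.000683). The sums were 243 to 269 CPM with lipoic acid and 293 to 310.3 CPM without. LAPTM5 made up most of them, at a mean of 244 CPM with lipoic acid and 290 CPM without. Among 6 megakaryocytic markers GP1BB and PPBP had no count, and the 3 that were tested (PF4, ITGA2B and SELP) rose. The sums were 26.4 to 28.5 CPM with lipoic acid and 5.62 to 6.95 CPM without. SELP made up most of them, at a mean of 21.3 CPM with lipoic acid and 5.25 CPM without. In untreated libraries PF4 had 0.246, 0.266 and 0.731 CPM and ITGA2B had 1.42, 0.0665 and 0.499 CPM. These levels alone were too low for a test, so both tests also rested on the lipoic acid libraries. The part of blood, myeloid and megakaryocytic cells in the Wnt values was not tested.

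Of the 60 genes 42 were abundant enough to be tested, 18 were not, and 7 of those 18 had no count in any library. Among the 42, 11 rose (26.2%) and 8 fell (19.0%), against 24.2% and 23.3% of all tested genes, so the share of the Wnt genes that differed, 45.2%, was near the 47.4% of the background. By at least 2-fold 5 of the 42 rose and 5 fell, where 7.92% and 5.93% of all tested genes did. These rises include WNT2, WNT5B, WNT8B and SFRP4 and these falls include NKD1, whose tests rested on the level in 1 group. The groups' CPM values did not overlap for 26 of the 42 genes (61.9%), 15 of them higher and 11 lower with lipoic acid, against 59.1% of all tested genes, 30.4% higher and 28.8% lower. WNT2, WNT5B and WNT8B passed the abundance filter only through the lipoic acid group and NKD1 only through the untreated group, so these 4 had to differ. SFRP4 reached the minimum in 3 lipoic acid libraries and 1 untreated library, so its test also rested on its level with lipoic acid. The median log2 fold change of the 42 genes was 0.10, also with WNT8B set at its ratio to the floor given below, beside -0.01 for all tested genes. With only the 4 libraries of even counts in the fit, untreated replicate 1 is the one control and its spread has to be borrowed from the lipoic acid group. There 7 rose and 9 fell, and 15 of the 19 calls held in the same direction. The plot of fold changes by role shows that every role with 2 or more tested genes, other than the ligands and the co-receptors, held both rises and falls.

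**Figure D1:**
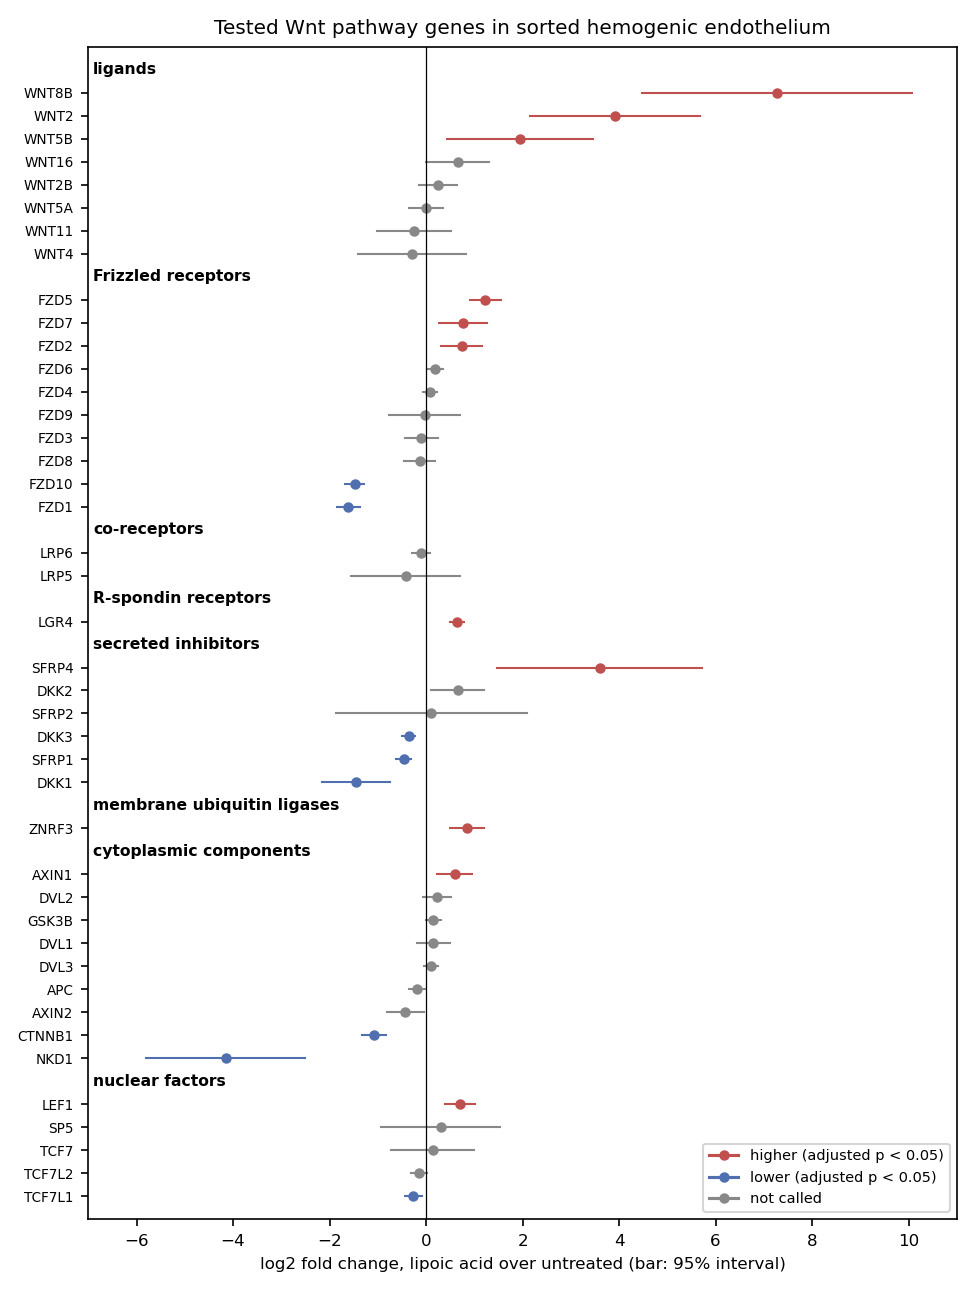
Log2 fold change (x axis, lipoic acid over untreated) of the 42 tested Wnt pathway genes (rows, grouped by role), with points for the edgeR estimate, bars for its 95% interval and colour for the call at an adjusted p under 0.05. The 11 rises and 8 falls are spread over the roles, and the called genes with the widest intervals, WNT8B, SFRP4, WNT2 and NKD1, had few or no counts in one group, while SFRP2, with few counts in both, is as wide. The value drawn for WNT8B, which had no count in untreated cells, depends on the prior count of the fit and is not a measured fold.

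Of the 8 tested ligands, 5 were not called, among them WNT5A and WNT2B, which had the most counts. The other 3, WNT2, WNT5B and WNT8B, lay near the detection limit and were tested only because of their level with lipoic acid, so their number says nothing of the ligands as a group. WNT5A, a ligand of the non-canonical branches, had 10.3, 10.2 and 11.99 CPM in lipoic acid libraries, against 12.6, 8.85 and 11.005 CPM in untreated libraries. Its log2 fold change was 0.00, with a 95% interval of -0.35 to 0.36. WNT2B, a canonical ligand, had 11.4, 9.11 and 10.4 CPM with lipoic acid and 9.72, 6.75 and 9.61 CPM without (log2 fold change 0.25, 95% interval -0.15 to 0.64, adjusted p = 0.275). The groups overlapped for both genes. On the opposite strand ST7L covers 21.2% of the exonic length of WNT2B, and the strand setting of the counting was not given.

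WNT2, a ligand of mesodermal and vascular tissues, rose. It had 1.64, 1.65 and 0.774 CPM in lipoic acid libraries, against 0.0615, 0 and 0.199 CPM in untreated libraries, a fitted 15.02-fold difference (adjusted p = 0.00269). All lipoic acid libraries lay above all untreated ones. Without untreated replicate 3, a single independent untreated count remained, and the ratio of counts was 61.4 with a 95% counting interval of 10.7 to 2458. WNT8B, a canonical ligand known from the embryonic forebrain, had 0.448, 0.760 and 0.483 CPM with lipoic acid and no count in any untreated library. Set against the 0.0393 CPM that 3 independent counts over the untreated group would give, the WNT8B mean was 14.4-fold higher (adjusted p = 0.00177). Such a ratio to the floor leaves out the counting error of the mean itself, here and below. For WNT8B it was 8.71 without either untreated replicate 2 or 3, and 3.05 without both. WNT5B, a relative of WNT5A, had 0.648, 0.823 and 0.338 CPM with lipoic acid and 0.0615, 0.133 and 0.266 CPM without, a 3.87-fold rise near the threshold (adjusted p = 0.0375). That call was lost in 9 of 17 other settings (adjusted p 0.0358 to 0.117 over those in which it was tested), among them the fits without lipoic acid replicate 1 (0.105) or 2 (0.117), without untreated replicate 1 (0.109) or 2 (0.0655), and with the 4 libraries of even counts (0.0667), and its rise was 6.05-fold without untreated replicate 3.

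The other ligands were low or undetected. WNT16, a ligand needed for blood stem cell specification in zebrafish, had 3.99, 5.63 and 3.77 CPM with lipoic acid and 3.88, 2.63 and 1.96 CPM without, and was not called (adjusted p = 0.0905), although 2 of 17 other settings called it higher. WNT11, a ligand of cell movement, and WNT4 stayed between 0.299 and 2.86 CPM in every library and were not called. WNT10B and WNT7A were too low to be tested. WNT10B had 0.249, 0 and 0.338 CPM with lipoic acid, WNT7A had 0.199, 0.0633 and 0.338 CPM, and neither had a count in untreated cells. Against the same floor their lipoic acid means were 4.99-fold and 5.10-fold higher, which leaves out the counting error of those means. With single libraries left out the ratio for WNT10B lay between 3.02 (without untreated replicate 3) and 7.48 (without lipoic acid replicate 2). For WNT7A it lay between 3.09 (without untreated replicate 3) and 6.85 (without lipoic acid replicate 2). Without both untreated replicates 2 and 3 it was 1.06 for WNT10B and 1.09 for WNT7A. WNT6 and WNT9A had counts in lipoic acid replicate 1 alone, WNT3 in untreated replicates 2 and 3, and WNT9B in untreated replicate 3 alone. WNT1, WNT3A, WNT7B, WNT8A and WNT10A were without a count, so levels up to 0.0530 CPM in the lipoic acid group and 0.0393 CPM in the untreated group cannot be told from 0, for counting error only.

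**Figure D2:**
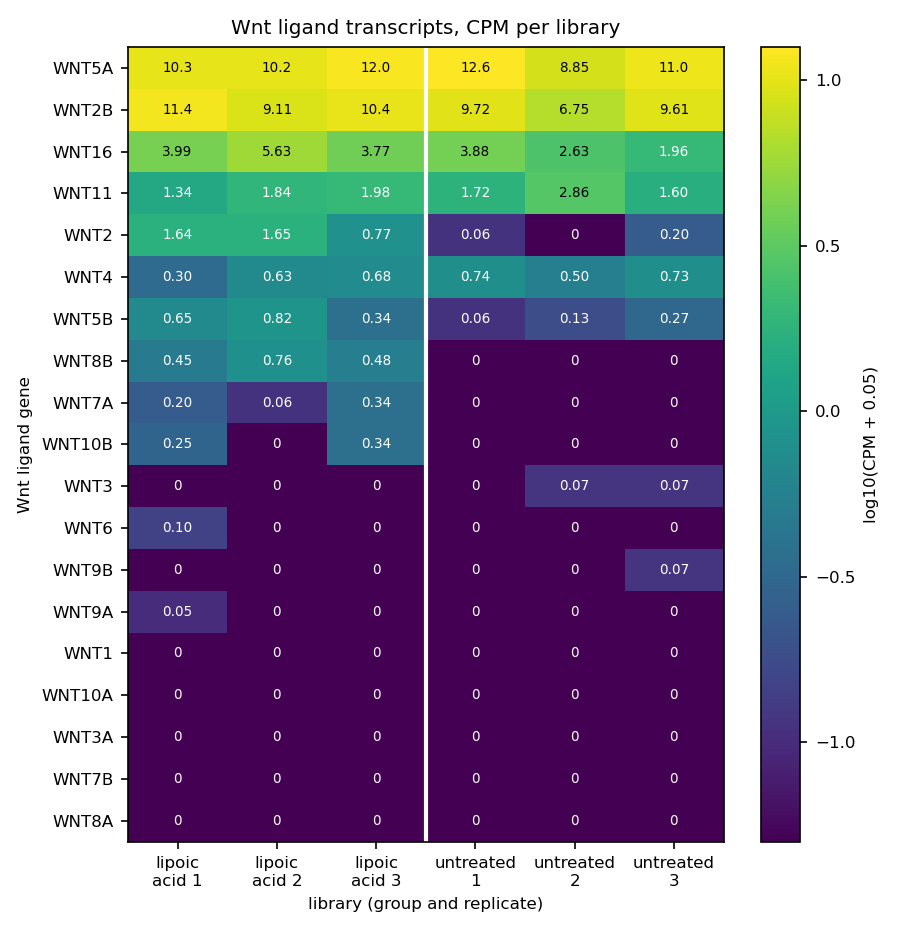
CPM of each of the 19 Wnt ligand genes (rows, ordered by level) in each library (columns, lipoic acid left and untreated right), coloured by log10(CPM + 0.05) with the CPM written in each cell. WNT5A and WNT2B, at 6.75 to 12.6 CPM, head both groups, and WNT2, WNT5B and WNT8B, which passed the abundance filter only through the lipoic acid group, are higher there.

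Levels of different ligands were compared as CPM per kilobase of annotated exon. In lipoic acid libraries the order was WNT5A (1.46 ± 0.138 CPM per kilobase), WNT16 (1.37 ± 0.313), WNT2B (0.820 ± 0.0915) and WNT11 (0.717 ± 0.139; SD, n = 3), and the ranges of WNT5A and WNT16 overlapped, as did those of WNT2B and WNT11. In untreated libraries WNT5A also came first (1.46 ± 0.252 CPM per kilobase) and its range lay above that of WNT16 (0.865 ± 0.298), while WNT16, WNT11 and WNT2B overlapped. Summed over the 19 ligands, CPM was 30.6, 30.7 and 31.1 in lipoic acid libraries, against 28.7, 21.8 and 25.5 in untreated libraries, so the groups did not overlap. The same held for 59.1% of all tested genes taken singly. Between 9 and 12 ligand genes had a count in a lipoic acid library and between 7 and 9 in an untreated library. Over all genes, 14901 to 15658 had a count in a lipoic acid library and 14668 to 15824 in an untreated library. The 8 ligands that sit in neighbouring pairs on a chromosome were all too low to be tested: WNT9A with WNT3A, WNT10B with WNT1, WNT6 with WNT10A, and WNT3 with WNT9B, whose annotated ends on chromosome 17 lie 46 bp apart.

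Markers of cell types outside the gate were also counted. Among endoderm and hepatic markers 7 of the 8 tested rose and 0 fell, and the list of 10 summed to 207 to 275 CPM in lipoic acid libraries and 76.1 to 89.1 CPM in untreated libraries. Of 6 tested epithelial markers 5 rose and 0 fell, with sums of 409 to 474 CPM with lipoic acid and 226 to 249 CPM without. In neither list was a marker at 0 in every library. FOXA2, a factor of endoderm, had 1.99, 3.73 and 3.72 CPM with lipoic acid and 0.246, 0 and 0 CPM without. CDH1, the epithelial cadherin, had 11.3, 9.49 and 12.1 CPM with lipoic acid and 0, 0 and 0.0332 CPM without, and ESRP1, an epithelial splicing factor, had 9.71, 16.6 and 12.2 CPM with lipoic acid and 0.185, 0 and 0.399 CPM without. FOXA2 and CDH1 were abundant enough to be tested only through their lipoic acid libraries. The test of ESRP1 also rested on its lipoic acid level, so the rises of FOXA2, CDH1 and ESRP1 add nothing to the counts above. KRT8, KRT18 and KRT19, keratins of simple epithelia, also rose, while EPCAM, an epithelial adhesion gene at 5.45 CPM with lipoic acid and 6.32 CPM without, was not called. The part of such cells in the ligand counts was not tested.

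Of the 10 Frizzled receptors, all of them tested, 3 rose, 2 fell and 5 were not called. The share called, 50%, was near the 47.4% of all tested genes. FZD1 (chromosome 7, 91264364 to 91271326, GRCh38) had 10.2, 8.73 and 10.2 CPM in lipoic acid libraries, against 28.4, 28.998 and 31.4 CPM in untreated libraries. FZD1 thus fell 3.05-fold (log2 fold change -1.61, SE 0.11, adjusted p = 3.02e-06). FZD10 (chromosome 12, 130162459 to 130165740), a receptor used by canonical ligands, had 16.4, 15.5 and 16.4 CPM with lipoic acid and 42.0, 48.9 and 44.2 CPM without, a 2.80-fold fall (log2 fold change -1.48, SE 0.09, adjusted p = 1.57e-06). Both groups were tight and far apart for these 2 genes, and both falls held in all 17 other settings.

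FZD5 (chromosome 2, 207762586 to 207769563), a receptor needed for yolk sac vessels in the mouse, rose. It had 15.1, 19.9 and 16.0 CPM with lipoic acid and 6.95, 7.78 and 7.05 CPM without, a 2.34-fold rise (log2 fold change 1.23, SE 0.15, adjusted p = 0.000124) that held in all 17 other settings. FZD7, a receptor of pluripotent and progenitor cells, had 9.32, 8.36 and 10.7 CPM with lipoic acid and 6.71, 3.76 and 6.15 CPM without (1.71-fold, adjusted p = 0.0167). FZD2, a close relative of FZD1 and FZD7, had 6.77, 6.46 and 6.53 CPM with lipoic acid and 4.61, 3.56 and 3.69 CPM without (1.66-fold, adjusted p = 0.00917). FZD1, FZD2 and FZD7 form a subfamily by sequence, of which FZD1 fell and the other two rose. In the 4 libraries of even counts neither FZD2 (adjusted p = 0.0988, and 0.00122 to 0.0988 over all settings) nor FZD7 (0.0803, and 0.00312 to 0.0803) was called, and FZD7 was also not called without lipoic acid replicate 3 (0.0712).

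The most abundant receptors, FZD4 and FZD6, were not called. FZD4, the receptor for norrin in endothelium, had 238, 249 and 239.9 CPM with lipoic acid and 240.0, 211 and 237 CPM without, a log2 fold change of 0.08 with a 95% interval of -0.06 to 0.22 (adjusted p = 0.323). PRSS23, on the opposite strand, covers 18.9% of the exonic length of FZD4. FZD6, a receptor of planar polarity, had 136, 138 and 152 CPM with lipoic acid and 122, 118 and 136 CPM without, and was not called (adjusted p = 0.068), although 3 of 17 other settings called it higher. FZD8 had 21.7, 15.1 and 16.1 CPM with lipoic acid and 21.3, 17.7 and 19.1 CPM without (log2 fold change -0.13, 95% interval -0.46 to 0.19). FZD3, also a receptor of planar polarity, had 11.8, 11.9 and 11.99 CPM with lipoic acid and 14.1, 9.91 and 14.2 CPM without (log2 fold change -0.10, 95% interval -0.44 to 0.24). The groups overlapped for both, and also for FZD9, which lay between 1.31 and 2.13 CPM over the 6 libraries and was not called.

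As shares of the summed Frizzled signal per kilobase, FZD6 made up 39.6% ± 1.74 and FZD4 37.3% ± 1.30 in lipoic acid libraries, against 34.0% ± 1.31 and 34.2% ± 1.27 in untreated libraries (SD, n = 3 each). FZD10 made up 5.56% ± 0.166 with lipoic acid and 15.2% ± 1.79 without, and FZD1 made up 1.58% ± 0.126 with lipoic acid and 4.69% ± 0.196 without. In untreated cells FZD10 was the third receptor in order, above FZD8 in every library. In lipoic acid libraries its range overlapped that of FZD8, and FZD1 stood below FZD2, FZD5 and FZD7, above which it lay in untreated cells. The sum of all Frizzled CPM was 467 to 481 with lipoic acid and 451 to 501 without, so the ranges overlapped.

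**Figure D3:**
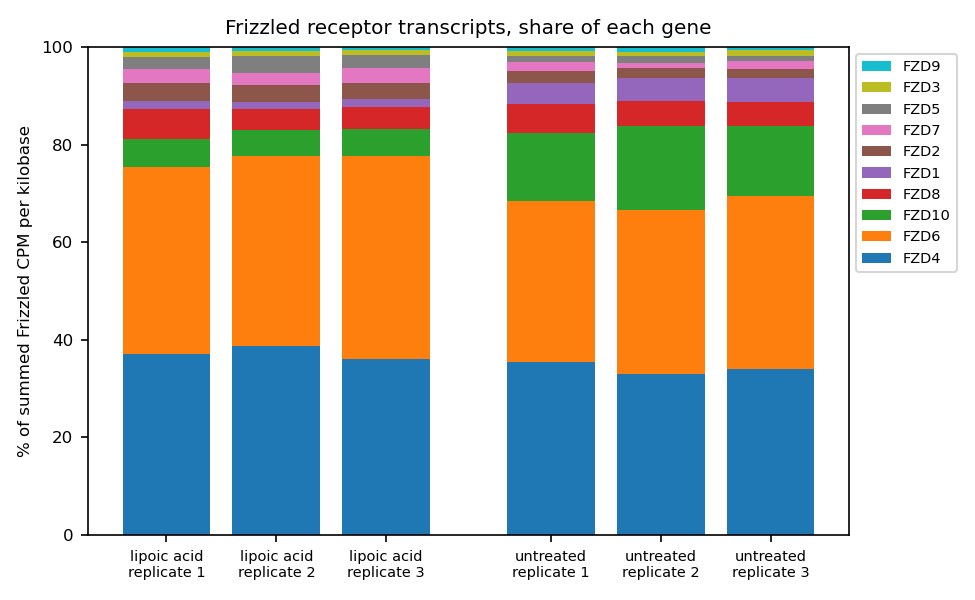
Share of each Frizzled gene (colours) in the summed Frizzled CPM per kilobase of exon (y axis, percent) in each library (bars, lipoic acid left and untreated right). FZD4 and FZD6 together fill most of every bar, FZD10 is 5.56% with lipoic acid and 15.2% without, and FZD1 is 1.58% with lipoic acid and 4.69% without.

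Of the co-receptors, LRP6 carried nearly all of the signal and neither gene was called. LRP6 had 72.5, 59.6 and 69.1 CPM with lipoic acid and 71.2, 75.3 and 69.6 CPM without (log2 fold change -0.10, 95% interval -0.28 to 0.08). LRP5 had 0.58 to 0.897 CPM with lipoic acid and 0.532 to 1.66 CPM without, a level at which only a large difference could be detected (95% interval of the log2 fold change -1.55 to 0.70).

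Of the genes that R-spondins act on, LGR4 and ZNRF3 rose. LGR4 (chromosome 11, 27365961 to 27472775), a receptor for R-spondins, had 122, 131 and 137 CPM in lipoic acid libraries, against 85.0, 80.8 and 83.9 CPM in untreated libraries, a 1.56-fold rise (log2 fold change 0.64, SE 0.07, adjusted p = 4.82e-05). ZNRF3 (chromosome 22, 28883592 to 29057487), a ligase that clears Frizzled from the membrane and is itself a target of beta-catenin, had 8.97, 10.6 and 9.38 CPM with lipoic acid and 5.23, 5.69 and 5.12 CPM without, a 1.80-fold rise (log2 fold change 0.85, SE 0.16, adjusted p = 0.00164). Every lipoic acid library was above every untreated one for both genes, and both calls held in all 17 other settings. LGR5, the stem cell marker of the same receptor family, and RNF43, the partner of ZNRF3, were too low to be tested. LGR5 had 0.127 to 0.249 CPM with lipoic acid and 0 to 0.399 CPM without. RNF43 had 7 independent counts over the lipoic acid libraries and 2 over the untreated ones, a ratio of 4.73 with a 95% counting interval of 0.9002 to 46.6, and 59.5% of its exonic length is shared with other genes on the same strand.

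R-spondins themselves are no part of the 60 genes and were read from a list of ligand secretion and agonist genes, of which 2 of 7 tested rose and 1 fell. RSPO3, the R-spondin of vessels, had 17.8, 15.6 and 17.9 CPM with lipoic acid and 8.43, 6.25 and 7.68 CPM without (2.29-fold higher, adjusted p = 0.000144). RSPO2 had 7.87, 2.72 and 8.36 CPM with lipoic acid and 0.800, 0.466 and 0.997 CPM without (8.36-fold higher, adjusted p = 0.000467). No lipoic acid library was as low as any untreated library for either gene, though lipoic acid replicate 2 was well below the other two for RSPO2. TSPAN12, a co-receptor of FZD4 for norrin, was 1.28-fold lower (adjusted p = 0.00436), a call lost in the 4 libraries of even counts (0.0545). WLS and PORCN, which export and lipidate the ligands, were present at 39.8 and 11.4 CPM with lipoic acid and 37.7 and 12.4 CPM without, and were not called.

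Of 6 tested secreted inhibitors 3 fell, 1 rose and 2 were not called. DKK3 (chromosome 11, 11963106 to 12009769), a divergent member of the Dickkopf family, had 159, 147 and 155 CPM with lipoic acid and 192, 198 and 203 CPM without, a 1.29-fold fall (log2 fold change -0.36, SE 0.06, adjusted p = 0.000662). SFRP1 (chromosome 8, 41261958 to 41309497), which binds Wnt ligands outside the cell, had 40.6, 39.8 and 42.6 CPM with lipoic acid and 54.4, 58.6 and 57.1 CPM without, a 1.38-fold fall (log2 fold change -0.47, SE 0.07, adjusted p = 0.000434). DKK1 (chromosome 10, 52314296 to 52318042), which blocks LRP5 and LRP6 and is known as a target of beta-catenin, had 2.39, 1.01 and 1.93 CPM with lipoic acid and 4.86, 5.62 and 4.22 CPM without. DKK1 fell 2.73-fold (log2 fold change -1.45, SE 0.32, adjusted p = 0.00405). The groups did not overlap for these 3 genes, and the falls held in all 17 other settings.

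SFRP4, another Wnt-binding protein of the SFRP family, rose at a low level, and it was tested only because of its level with lipoic acid. It had 0.996, 1.58 and 1.50 CPM in lipoic acid libraries, against 0, 0 and 0.332 CPM in untreated libraries, a fitted 12.1-fold difference (adjusted p = 0.0112). All 10 untreated counts lay in replicate 3. Without that library the lipoic acid mean of SFRP4 was 21.0 times the untreated floor, or 7.36 times it without untreated replicates 2 and 3. DKK2 had 3.24, 4.43 and 3.29 CPM with lipoic acid and 2.28, 2.16 and 2.53 CPM without. The groups did not overlap, but DKK2 was not called (adjusted p = 0.0515, and 0.045 to 0.142 over the other settings, 3 of which called it higher). NOTUM, a deacylase that inactivates Wnt ligands, had 7 independent counts over the lipoic acid libraries and none over the untreated ones. Its lipoic acid mean was 3.06 times the untreated floor, a ratio that leaves out the counting error of the mean. The ratio was 1.86 without either untreated replicate 2 or 3 and under 1 without both. SFRP2 reached 0.532 CPM at most and was not called, SFRP5 had at most 2 independent counts in a group, and DKK4 and WIF1 had no count in any library.

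Mesenchymal and stromal markers were also counted. Of 14 tested 2 rose and 6 fell, the list summed to 1626 to 2238 CPM in lipoic acid libraries and 2084 to 2779 CPM in untreated libraries, and none was at 0 in every library. Their part in the lower DKK3, SFRP1 and DKK1 was not tested. Of 6 other extracellular inhibitors tested, 2 rose and 3 fell. SOST, a blocker of LRP5 and LRP6 known from bone, had 24.3, 37.0 and 27.5 CPM with lipoic acid and 4.18, 3.72 and 4.49 CPM without (7.14-fold higher, adjusted p = 2.08e-06). APCDD1, a membrane inhibitor and Wnt target, was 2.02-fold higher (adjusted p = 0.00186). IGFBP4, which also binds insulin-like growth factors, was 1.58-fold lower at 1099 ± 39.7 CPM with lipoic acid and 1731 ± 81.9 CPM without (SD, n = 3 each, adjusted p = 1.1e-05). CER1, an inhibitor of Wnt, Nodal and BMP, had no count with lipoic acid and 0.677, 0.698 and 0.831 CPM without (adjusted p = 0.000724). Its untreated mean was 13.9 times the floor of the lipoic acid group, a ratio that leaves out the counting error of the mean. The ratio was 8.94 without lipoic acid replicate 1 and 8.79 without replicate 3. CER1 passed the abundance filter only through the untreated group, so it had to differ and its fall adds nothing to the count of falls. FRZB, which belongs to the SFRP family, was 1.39-fold lower (adjusted p = 0.0142) but was not called without lipoic acid replicate 1 (0.0688) or 3 (0.0503) or without untreated replicate 1 (0.0516) or 3 (0.0619).

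**Figure D4:**
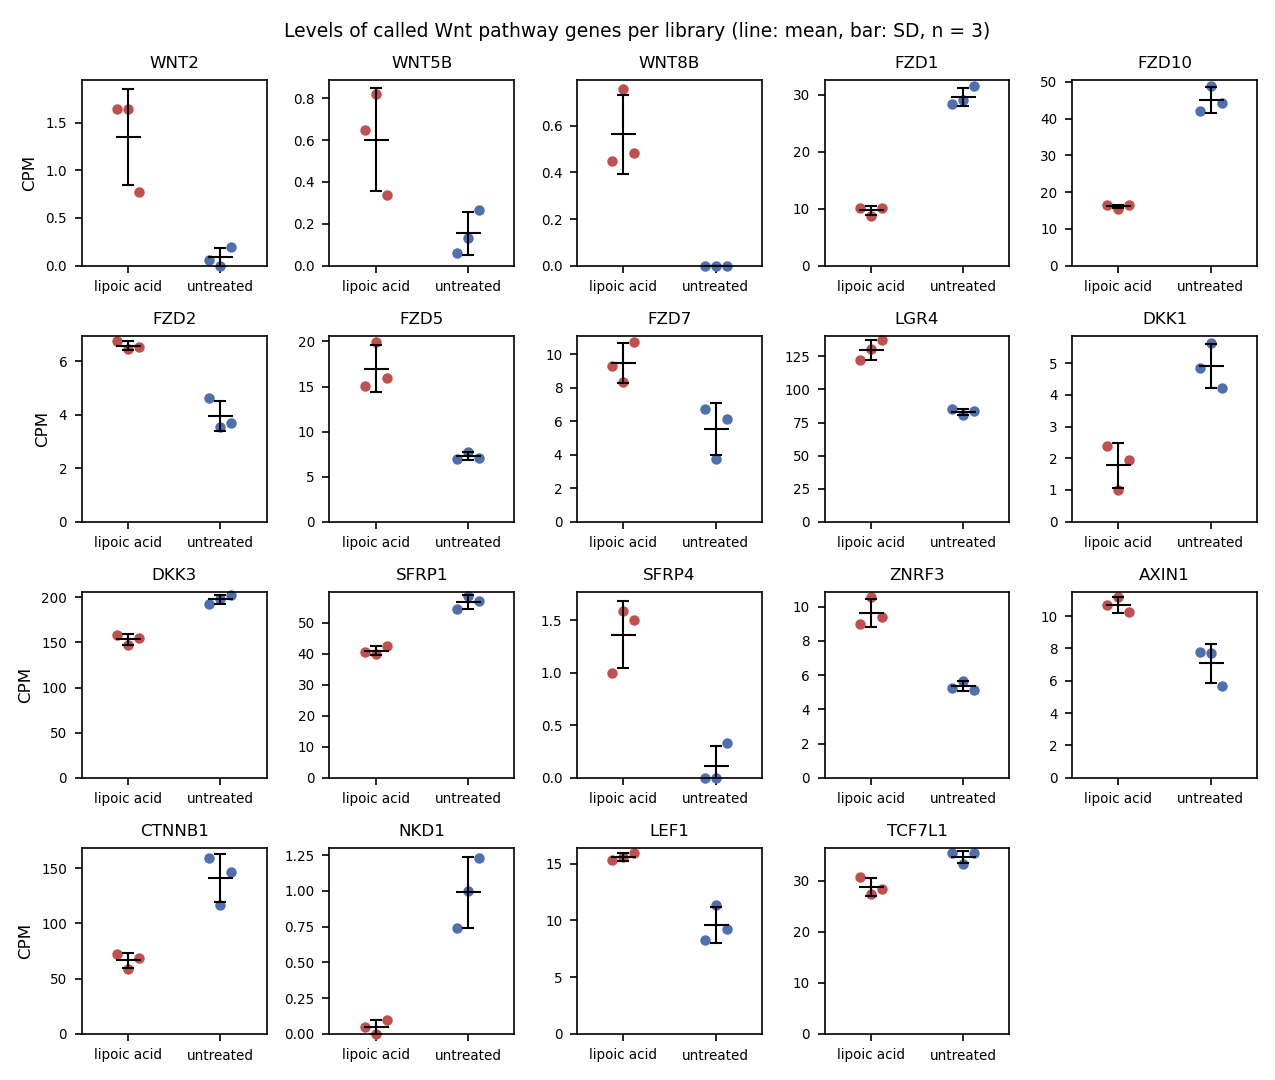
CPM (y axes, each from 0) of the 19 called Wnt pathway genes in the 3 lipoic acid libraries (left in each panel) and the 3 untreated libraries (right), with points for libraries, a line for the mean and bars for the SD. The groups do not overlap in any of the 19 panels, but these genes were chosen by a difference in the same values. The lack of overlap therefore adds nothing to the calls, and it was also found for 59.1% of all tested genes. WNT2, WNT5B and WNT8B passed the abundance filter only through the lipoic acid group and NKD1 only through the untreated group. CTNNB1 averages 66.7 CPM with lipoic acid and 141 CPM without.

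Of the cytoplasmic components CTNNB1 differed most among the abundant genes. CTNNB1 (chromosome 3, 41194741 to 41260096) encodes beta-catenin, the transcriptional effector of the canonical branch and also a part of adherens junctions. It had 71.9, 59.1 and 69.0 CPM in lipoic acid libraries, against 159, 117 and 147 CPM in untreated libraries. CTNNB1 fell 2.11-fold (log2 fold change -1.08, SE 0.11, adjusted p = 6.6e-05), with the groups far apart and the fall between -1.25 and -0.97 on the log2 scale in the 17 other settings. JUP, the related junction protein plakoglobin, read from a list of nuclear partners, had 392, 392 and 364 CPM with lipoic acid and 447, 405 and 393 CPM without and was not called (log2 fold change -0.12, 95% interval -0.26 to 0.02).

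Of AXIN1, AXIN2, APC and GSK3B, the destruction complex genes among the 60, AXIN1 was called. AXIN1, its scaffold, had 10.7, 11.2 and 10.2 CPM with lipoic acid and 7.81, 7.75 and 5.69 CPM without, 1.51-fold higher (adjusted p = 0.0135), a call lost in the 4 libraries of even counts (0.0636, and 0.00161 to 0.0636 over all settings). AXIN2 (chromosome 17, 65528563 to 65561647), the inducible scaffold widely read as a target of the pathway, had 7.32, 5.95 and 6.86 CPM with lipoic acid and 10.6, 7.68 and 8.84 CPM without. The groups did not overlap, yet AXIN2 was not called (log2 fold change -0.43, 95% interval -0.82 to -0.04, adjusted p = 0.0664), while 5 of 17 other settings called it lower (0.0207 to 0.233 over all 17). An annotated transcript on the same strand shares 25.2% of the exonic length of AXIN2. APC had 49.3, 46.0 and 50.6 CPM with lipoic acid and 56.6, 51.4 and 58.8 CPM without (adjusted p = 0.0581, called lower in 4 of 17 other settings). GSK3B, the kinase of the complex, had 60.3, 58.2 and 56.9 CPM with lipoic acid and 51.3, 55.5 and 51.2 CPM without (adjusted p = 0.0901, called higher in 2 of 17 other settings).

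Dishevelled proteins carry the signal from Frizzled to the complex, and none of the 3 genes was called. DVL3 had 117, 115 and 113.2 CPM with lipoic acid and 110.2, 99.1 and 113.1 CPM without (log2 fold change 0.10, 95% interval -0.05 to 0.25). It made up 79.1% ± 0.791 of the dishevelled signal per kilobase with lipoic acid and 79.9% ± 2.35 without. DVL1 had 10.4, 10.9 and 9.14 CPM with lipoic acid and 9.66, 9.98 and 7.81 CPM without, and DVL2 had 12.005, 11.1 and 10.97 CPM with lipoic acid and 9.23, 10.3 and 9.77 CPM without. The groups overlapped for DVL1 and did not for DVL2 (log2 fold change 0.22, 95% interval -0.06 to 0.51). NKD1 (chromosome 16, 50548330 to 50649249), a feedback inhibitor that binds dishevelled, fell, though it was tested only because of its untreated level. It had 0.0498, 0 and 0.0967 CPM with lipoic acid and 0.738, 0.998 and 1.23 CPM without (adjusted p = 0.00138). In independent counts that was 3 against 79, a ratio 19.5-fold lower with lipoic acid and a 95% counting interval of 6.43 to 96.5. Without lipoic acid replicate 3, 1 count remained in that group, and NKD1 was 37.1-fold lower (6.47 to 1483). NKD2 had 1 independent count with lipoic acid and 4 without.

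Among the nuclear factors LEF1 rose and TCF7L1 fell slightly. LEF1 (chromosome 4, 108047545 to 108168956), which partners beta-catenin and is a target of the pathway in many tissues, had 15.3, 15.6 and 16.0 CPM with lipoic acid and 8.24, 11.4 and 9.21 CPM without, a 1.62-fold rise (log2 fold change 0.70, SE 0.14, adjusted p = 0.00268) that held in all 17 other settings. TCF7L1, which acts mainly as a repressor, had 30.8, 27.4 and 28.4 CPM with lipoic acid and 35.4, 33.3 and 35.4 CPM without (log2 fold change -0.27, SE 0.08, adjusted p = 0.02). That call was lost in 5 of 17 other settings (0.00719 to 0.138), among them those without lipoic acid replicate 2 (0.0774) or 3 (0.0847) and without untreated replicate 1 (0.057) or 3 (0.0675). TCF7L2, the highest of the 4 TCF and LEF genes, had 62.4, 62.2 and 65.7 CPM with lipoic acid and 65.8, 68.8 and 76.5 CPM without and was not called (adjusted p = 0.121). TCF7, known from T cells, reached 3.16 CPM at most and was not called (log2 fold change 0.13, 95% interval -0.73 to 1.00). Per kilobase LEF1 made up 15.3% ± 0.408 of the 4 genes with lipoic acid and 8.84% ± 1.49 without (SD, n = 3 each), and the order TCF7L2, TCF7L1, LEF1 and TCF7 was the same in both groups with no overlap between neighbours.

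SP5, a factor that beta-catenin induces in early embryos and stem cells, had 0.697, 1.01 and 0.483 CPM with lipoic acid and 0.308, 0.964 and 0.499 CPM without and was not called (log2 fold change 0.30, 95% interval -0.93 to 1.53). Among genes of the 60 known as direct or feedback targets, LEF1 and ZNRF3 rose, DKK1 fell, and AXIN2, SP5 and TCF7 were not called. NKD1 also fell, but it was tested only because of its untreated level and adds nothing to this count. RNF43, NOTUM and LGR5 were too low to be tested. To show what genes of the set carry near their starts, RefSeq promoter windows on GRCh38.p14, from 250 bases before to 50 bases after a gene's start, were searched on both strands for the TCF and LEF letters CTTTG followed by AA, AT, TA or TT. Windows were found for 42 of the 60 symbols (50 windows), and 5 windows held a match (10%, against 13.8% of the 35116 windows in the table). AXIN2, ZNRF3 and NKD1 had no window and were not searched. Below are DKK1, which fell and holds 2 matches, SP5, which holds 3 and was not called, and LEF1, which rose and has none in the window of its RefSeq start, each 5′ to 3′ on the strand of the gene with the matches in capitals.
DKK1, chr10:52314031-52314330, plus strand: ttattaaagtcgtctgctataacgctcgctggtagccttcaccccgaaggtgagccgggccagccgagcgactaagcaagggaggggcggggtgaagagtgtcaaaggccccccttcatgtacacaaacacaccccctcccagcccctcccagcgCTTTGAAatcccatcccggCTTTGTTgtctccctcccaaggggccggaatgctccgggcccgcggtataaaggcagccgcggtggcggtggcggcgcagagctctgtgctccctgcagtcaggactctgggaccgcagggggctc
SP5, chr2:170715087-170715386, plus strand: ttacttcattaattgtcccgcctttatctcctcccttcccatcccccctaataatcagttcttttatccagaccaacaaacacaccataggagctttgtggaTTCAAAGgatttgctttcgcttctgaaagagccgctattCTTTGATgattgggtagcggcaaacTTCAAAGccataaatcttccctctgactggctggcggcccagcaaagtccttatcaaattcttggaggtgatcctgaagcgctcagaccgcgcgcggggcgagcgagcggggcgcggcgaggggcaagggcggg
LEF1, chr4:108166252-108166551, minus strand: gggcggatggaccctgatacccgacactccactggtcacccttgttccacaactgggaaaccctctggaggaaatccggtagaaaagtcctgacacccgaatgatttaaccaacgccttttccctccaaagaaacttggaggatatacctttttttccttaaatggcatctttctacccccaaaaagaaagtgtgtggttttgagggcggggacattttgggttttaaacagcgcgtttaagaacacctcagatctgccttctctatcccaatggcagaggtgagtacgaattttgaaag
The RefSeq start used for LEF1 lies inside the GENCODE span given for the gene above, so its window is not at the outermost annotated start. In DKK1 the matches begin 95 and 76 bases before the start, and in SP5 they begin 148, 109 and 84 bases before it, the first and last of these on the opposite strand. A match is a string of letters and not a measured binding site.

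Further genes of the pathway, from lists written with earlier results of these data known, also moved in both directions. Over 137 tested genes outside the 60, 37 rose and 40 fell, where 24.2% and 23.3% of all tested genes did. The counts of the lists below are to be read against those shares. Of 27 genes of the destruction complex, dishevelled and tankyrase group, 7 rose and 9 fell. TNKS, a tankyrase that marks AXIN for degradation, rose 1.58-fold (adjusted p = 5.17e-05) and USP34, which removes ubiquitin from AXIN, 1.77-fold (adjusted p = 3.57e-05), whereas CXXC5 and DACT3, which bind dishevelled, fell 1.65-fold (adjusted p = 5.2e-05) and 1.88-fold (adjusted p = 0.000356). Among 11 co-receptor genes 2 rose and 2 fell. GPC3, a heparan sulphate carrier abundant in fetal liver, had 16.1, 23.0 and 17.2 CPM with lipoic acid and 1.11, 0.532 and 0.931 CPM without (21.7-fold higher, adjusted p = 1.57e-06). ROR1, a receptor for WNT5A, had 8.32, 4.43 and 6.48 CPM with lipoic acid and 21.5, 21.3 and 19.5 CPM without (3.23-fold lower, adjusted p = 0.000111). KREMEN1, a receptor for Dickkopf proteins, was 3.83-fold higher (adjusted p = 0.000207).

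The non-canonical branches were mixed. Of 15 planar polarity genes 2 rose and 4 fell: CELSR1, a polarity cadherin, was 2.33-fold higher (adjusted p = 0.000226), and VANGL1 and VANGL2, polarity proteins of the membrane, were 1.25-fold and 1.30-fold lower (adjusted p = 0.0018 and 0.00189). Of 15 calcium branch genes 5 rose and 3 fell, with PRKCA, a protein kinase C, 1.92-fold higher (adjusted p = 0.000166) and the calcineurin target NFATC2 2.29-fold higher (adjusted p = 0.000919), while NFATC1 was 1.34-fold lower (adjusted p = 0.00106). Of 19 nuclear partners 3 rose and 5 fell, with HIPK2, a kinase, 1.45-fold higher (adjusted p = 0.00019) and CREBBP, a coactivator, 1.27-fold lower (adjusted p = 0.00496).

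Genes listed as Wnt targets in other tissues also moved both ways, with 10 rises and 7 falls among 25. MYC, a growth regulator with many other inputs, had 41.9, 41.8 and 39.9 CPM with lipoic acid and 11.3, 13.1 and 14.0 CPM without (3.22-fold higher, adjusted p = 1.52e-06). TNFRSF19 was 2.64-fold lower (adjusted p = 4.19e-05) and SNAI2, a factor of mesenchymal cells, 1.79-fold lower (adjusted p = 2.05e-05). Of 14 tested genes that Wnt signals control in brain endothelium, 5 rose and 7 fell. CLDN5, the tight junction claudin of endothelium, had 1.79, 2.34 and 2.42 CPM with lipoic acid and 10.6, 12.2 and 8.64 CPM without (4.80-fold lower, adjusted p = 2.98e-05). SLC7A1, a transporter of cationic amino acids, had 133, 145 and 138 CPM with lipoic acid and 46.6, 32.6 and 44.7 CPM without (3.35-fold higher, adjusted p = 3.72e-06). SLC2A1, the glucose transporter, was 1.62-fold lower (adjusted p = 2.84e-06) and SOX17, an arterial and hemogenic factor, 2.32-fold lower (adjusted p = 1.1e-05). PLVAP, which Wnt signals repress in brain vessels, was 2.02-fold lower (adjusted p = 1.62e-06). Of 8 pan-endothelial markers 1 rose and 4 fell in the same libraries, with sums of 4237 to 4393 CPM with lipoic acid and 5399.6 to 5566 CPM without, and their part in these falls was not tested.

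**Figure D5:**
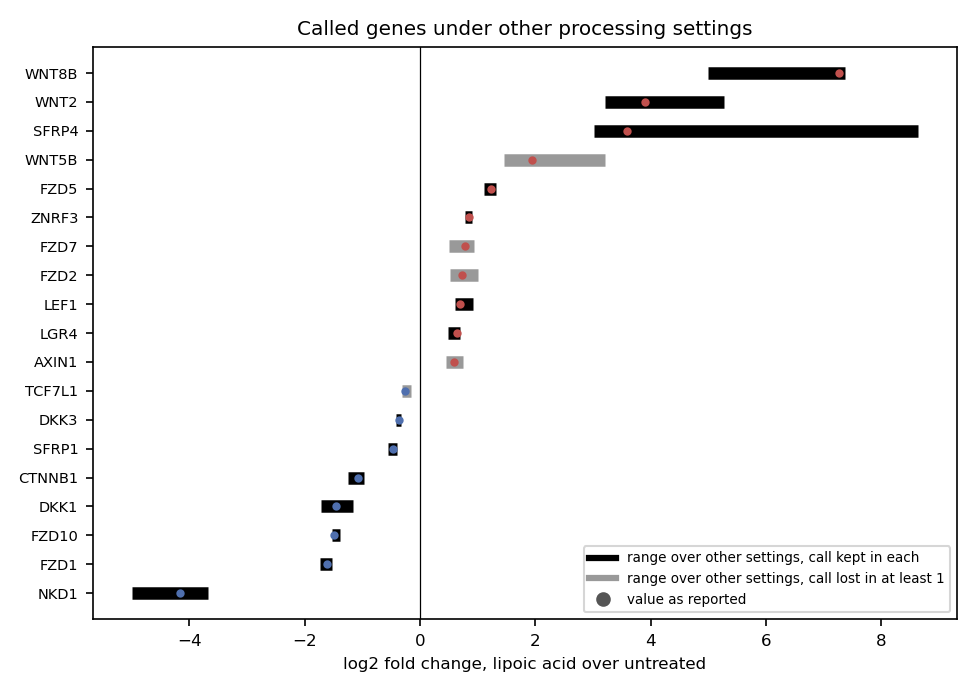
Log2 fold change (x axis, lipoic acid over untreated) of the 19 called genes (rows), with a point for the value as reported and a bar for its range over 17 other settings, black where each setting that tested the gene kept the call and grey where at least 1 lost it. No bar crosses 0, and the 5 grey bars are those of WNT5B, FZD7, FZD2, AXIN1 and TCF7L1. WNT8B, WNT2, SFRP4 and NKD1, which have wide bars, had few or no counts in one group.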

How the data were processed

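Counts per gene symbol were used as the authors deposited them. Per the submitters' processing notes, HISAT2, featureCounts and DESeq2 were used with hg38. Their versions and options, the annotation, the strand setting and the treatment of multiply aligned reads are not given in the sources used here. No column was left unused, and depth and even counts are as given above. The cDNA was amplified and no molecular identifiers are mentioned, so counting intervals and floors cover counting error only. For both, counts of the 4 even-count libraries were halved.

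In R 4.3.3, genes were kept by filterByExpr by group, scaled by TMM and tested with edgeR 4.0.16 (quasi-likelihood F test, group as the only term), lipoic acid minus untreated. Intervals are at 95%, and count ratios have exact binomial intervals. The members, lists and settings were chosen with earlier results of these data known. Of the 60 genes, those named with values in every library were called, or averaged at least 5 CPM in a group, or were at 0 in one group with at least 10 counts over the other. WNT16, LRP5, LGR5, RNF43, DKK2, SP5, TCF7 and NKD2 fall outside this rule, which covers no marker genes. These and the named markers were chosen after their values were seen. For other lists, up to 5 called genes with the lowest p and up to 2 abundant genes not called could be named. Positions, exonic lengths and overlaps came from GENCODE v29 on GRCh38, which holds all 60 symbols and 99.4% of all symbols. Exonic length is the union of annotated exons, so levels per kilobase are approximate. Alternatives used limma 3.58.1, DESeq2 1.42.0 and mgcv 1.9.3.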

Additional observations from a re-analysis of the deposited data

How the results depend on the processing

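The 17 other settings changed the scaling (relative log expression, or the upper quartile), the filter (none, or 1 CPM throughout 1 group), the tool (DESeq2, or voom with quality weights) or the model (replicate block). They also left out each library, dropped mitochondrially encoded genes, halved even counts, kept the 4 libraries of even counts, or removed a trend with GC content and exonic length. Of the 19 calls among the Wnt genes 14 held in each of these settings that tested the gene, and none changed sign. WNT5B and WNT8B were tested in 15 of the 17 settings, and WNT2, SFRP4 and NKD1 in 16. Neither WNT5B nor WNT8B was abundant enough to be tested once even counts were halved. The number of Wnt genes that rose was 7 with the 4 libraries of even counts, against 11, and in the other settings both counts were within 1.5 times the reported ones. With libraries left out one at a time, 10 to 12 Wnt genes rose and 7 to 10 fell, and over all tested genes 2669 to 3569 rose and 2386 to 3448 fell. At an adjusted p under 0.05 and at least 2-fold, 5 Wnt genes rose and 5 fell, 1092 and 817 of all tested genes did, and 16 and 8 of the other pathway genes. Once untreated replicate 1 is left out, the excess of even counts and lipoic acid cannot be told apart. After the GC and length trend was removed, 41.2% of calls over all tested genes were rises, against 50.9% as reported, with a median shift of -0.10 on the log2 scale. With the replicate number as a block, 11 Wnt genes rose and 10 fell. Deviations of same-numbered libraries correlated at 0.0598 to 0.0783 over genes, so the numbers were not taken to pair the libraries, although each library correlated best with its own number. Low counts limit the ligands other than WNT5A and WNT2B, LRP5, LGR5, RNF43, NOTUM and NKD2, for which only large differences could be detected.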
